A study of Homo sapiens with 6 samples.

Results

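The genes described here are the 4 class IIa lysine deacetylases, HDAC4, HDAC5, HDAC7 and HDAC9, and 3 transcription factors that they bind, MEF2A, MEF2C and MEF2D. They were taken by gene name from the deposited table, which matched 7 of 7 names among 60675 gene rows, and all 7 had enough counts to enter the fit across genes. The names were proposed with earlier results of these libraries known, in which HDAC5 and HDAC9 differed between the compounds, so the set was in part chosen by the CPM of these same libraries. The differences of the 7 genes between compounds are therefore given as a description, with errors and intervals but without p-values.

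The study asked how selective inhibitors of KDAC6 (HDAC6), a mostly cytoplasmic deacetylase, are. HT1080 cells, an established human fibrosarcoma line of the genotype labelled WT, were grown with SW-138 or with SW-113, each at 1 µM for 48 h, and RNA-seq was run on total RNA after ribosomal RNA depletion. Each compound had 3 libraries, which makes 6. No vehicle library was analysed here, so each gene called higher or lower is so in SW-138 against SW-113, and a difference could come from either compound. Whether replicates were separate cultures is not labelled, so errors and p-values cover the spread among these libraries, possibly a technical one. In such bulk RNA, fewer cells that express a gene and less RNA per cell cannot be told apart.

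Class IIa deacetylases are corepressors with weak catalytic activity of their own, and they act largely by holding corepressor complexes that contain HDAC3 on DNA-bound factors. MEF2 proteins are MADS-box factors that turn on genes of muscle, vessel, neuron and early response programmes, and a short helix near the amino terminus of class IIa deacetylases binds the MEF2 DNA-binding domain and silences those genes. Kinases such as CaM kinases, protein kinase D and salt-inducible kinases phosphorylate the deacetylases, which moves them out of the nucleus, so that much of their control lies in protein location rather than in mRNA level.

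Library totals ranged from 32771670 to 50871623 estimated read counts. The mesenchymal genes VIM, CD44, FN1, LGALS1, S100A6, MMP14, COL4A1 and TGFBI summed to 7821 to 8837 counts scaled to 1000000 per library (CPM) with SW-138 and 7409 to 8262 CPM with SW-113. VIM was the largest part of that sum, and the 8 genes did not go one way: TGFBI was lower (-0.24, edgeR Benjamini-Hochberg adjusted p = 0.0385) and 7 did not pass, from -0.23 in S100A6 to 0.25 in COL4A1. The 8 markers of other cell types, EPCAM, CDH1, PTPRC, PECAM1, CD3E, MYOD1, DES and ALB, summed to 0.237 to 0.462 CPM with SW-138 and 0.302 to 0.442 CPM with SW-113, and MYOD1 and ALB were at 0 in all libraries. On the first principal component, SW-138 replicate 2 was the outlying library, at -39.1 beside -5.88 to 24.1 for the others, so values without it are given below. Stable noncoding RNAs took 7.33% to 10.0% of counts with SW-138 and 11.1% to 12.6% with SW-113. With these and mitochondrial genes left out, the log2 fold changes were 0.67 for HDAC5, 0.48 for HDAC9, 0.94 for MEF2C and 0.26 for MEF2D.

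The 3 MEF2 genes are close paralogs, and their sequences show how far reads can tell them apart. The first 90 coding bases, which encode the start of the MADS box, are given from GENCODE release 29 transcripts (GRCh38), with capitals at each base that differs from MEF2A.
MEF2A: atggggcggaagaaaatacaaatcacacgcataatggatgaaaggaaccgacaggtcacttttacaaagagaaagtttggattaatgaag
MEF2C: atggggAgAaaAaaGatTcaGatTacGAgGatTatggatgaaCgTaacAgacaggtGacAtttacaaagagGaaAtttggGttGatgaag
MEF2D: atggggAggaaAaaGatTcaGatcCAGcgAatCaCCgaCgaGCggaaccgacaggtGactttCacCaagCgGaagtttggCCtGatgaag
MEF2C differed from MEF2A at 20 of these bases and MEF2D at 23. In the longest annotated transcript of each gene, 0% of the 50-base words of HDAC4, HDAC5 and MEF2D also lay in a transcript of another gene on either strand. The share was 0.652% for HDAC9, 3.31% for MEF2C, 9.25% for HDAC7 and 12.7% for MEF2A. The genes that shared words with HDAC7, MEF2A and MEF2C were overlapping neighbours, the antisense RNA RP5-1057I20.4, LYSMD4 and the antisense RNAs of MEF2C, with a further 15 words of MEF2A in pseudogenes. HDAC7 and MEF2A were also the members whose expected counts were not whole in all 6 libraries. Levels of these 2 genes are therefore the less certain ones, and the other 5 had whole counts throughout.

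Promoters are shown because some class IIa and MEF2 genes carry the element that MEF2 proteins bind. RefSeq windows from 250 bases before to 50 after an annotated start (GRCh38.p14) were found for 6 of the 7 genes, 22 windows in all. HDAC5 had no window, so its promoter was not searched. The MEF2 element was searched on both strands, and it can overlap a TATA-like run. It lay in 3 of the 22 windows, 1 each of HDAC9, MEF2A and MEF2C, and in 2.99% of all 35116 windows of the same length. The 3 windows are printed in the direction of the gene, with the element in capitals: HDAC9 at chr7:18086575-18086874 (plus strand), MEF2A at chr15:99565734-99566033 (plus strand) and MEF2C at chr5:88824295-88824594 (minus strand).
HDAC9: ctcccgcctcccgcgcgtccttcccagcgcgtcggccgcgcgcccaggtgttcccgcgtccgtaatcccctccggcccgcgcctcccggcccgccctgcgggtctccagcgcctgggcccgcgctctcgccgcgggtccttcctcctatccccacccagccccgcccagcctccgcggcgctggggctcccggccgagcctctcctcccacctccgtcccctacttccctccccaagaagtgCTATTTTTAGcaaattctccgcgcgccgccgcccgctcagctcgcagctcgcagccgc
MEF2A: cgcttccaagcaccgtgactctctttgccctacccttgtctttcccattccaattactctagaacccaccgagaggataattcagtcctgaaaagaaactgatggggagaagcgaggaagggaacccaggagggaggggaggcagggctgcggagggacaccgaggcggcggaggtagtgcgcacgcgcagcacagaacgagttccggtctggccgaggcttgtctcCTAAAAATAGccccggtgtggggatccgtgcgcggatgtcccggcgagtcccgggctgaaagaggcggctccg
MEF2C: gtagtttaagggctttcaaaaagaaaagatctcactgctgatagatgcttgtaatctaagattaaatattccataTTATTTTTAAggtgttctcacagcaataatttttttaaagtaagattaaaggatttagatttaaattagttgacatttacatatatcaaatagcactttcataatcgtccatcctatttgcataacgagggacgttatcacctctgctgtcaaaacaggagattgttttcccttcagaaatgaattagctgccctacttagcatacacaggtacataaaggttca
The element began 8 bases before the start in the HDAC9 window, 23 before it in MEF2A and 175 before it in MEF2C. The HDAC9 window was rich in G and C (75.0%) with 41 CpG dinucleotides, the MEF2A window had 61.0% and 23, and the MEF2C window, at an internal start, had 32.0% and 3. The cyclic AMP response element TGACGTCA lay in 0 of the 22 windows and in 1.85% of all windows. The pattern TGANTCA, a loose form of the AP-1 element TGACTCA, lay in 2 overlapping windows of HDAC9 and in 1 of MEF2C, and in 7.71% of all. It read TGATTCA in HDAC9 and TGACTCA in MEF2C. A match is a description of the letters and says nothing about binding in these cells.

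Of the 7 genes, 4 were higher in SW-138, with no overlap between the libraries of the compounds. They were HDAC5, HDAC9, MEF2C and MEF2D. HDAC4, HDAC7 and MEF2A had overlapping libraries, and 0 of the 7 genes were lower. The 4 were also among the genes past an adjusted p of 0.05 in edgeR's quasi-likelihood fit over 16905 genes, of which 6.82% passed in either direction, 2.76% higher and 4.06% lower, and 27.9% had libraries that did not overlap. Because the names were chosen with this contrast known, nothing is read from that count.

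**Figure D1:**
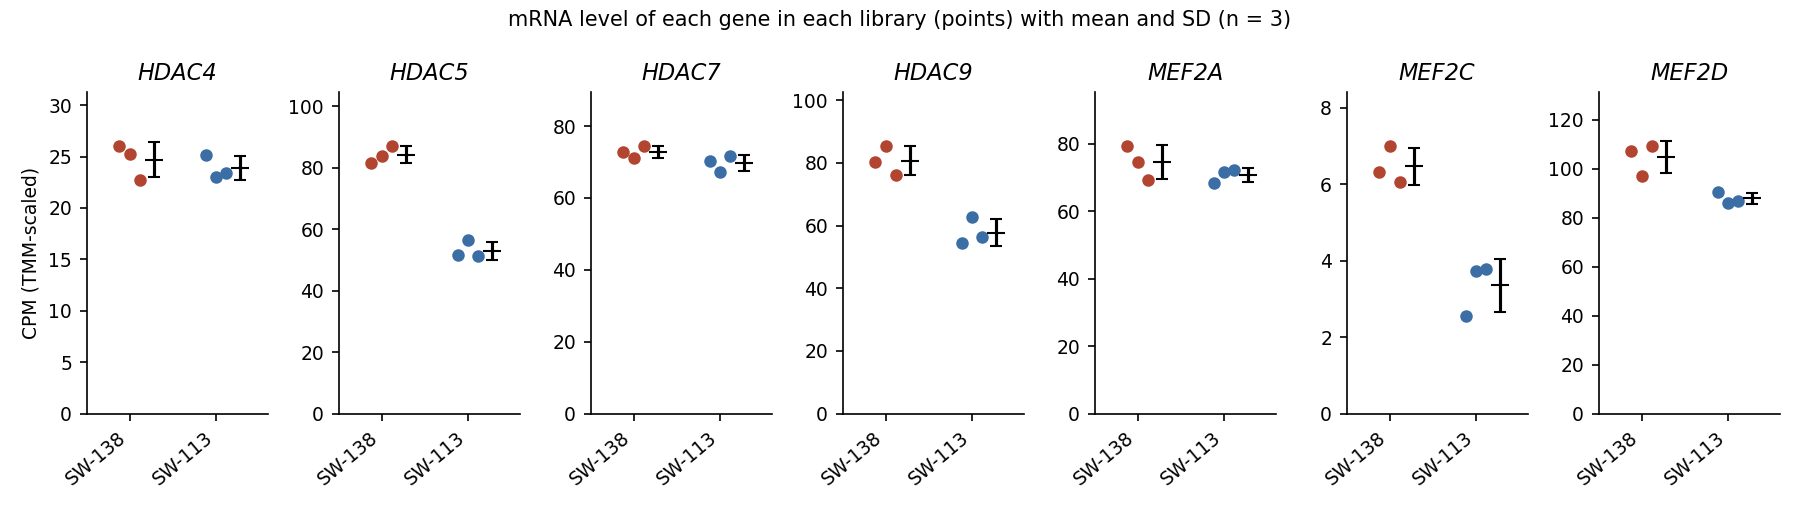
Level of each of the 7 genes in CPM (counts scaled to 1000000 per library with TMM factors), one panel per gene with its own axis from 0, points for the 3 libraries of SW-138 (red) and of SW-113 (blue), and mean with SD beside them. The points of HDAC5, HDAC9, MEF2C and MEF2D do not overlap between compounds, while those of HDAC4, HDAC7 and MEF2A do.

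HDAC5, a class IIa deacetylase known for restraining growth genes in the heart, had the largest difference of the 4 deacetylases. It was at 81.6, 84.0 and 87.2 CPM with SW-138, against 51.5, 56.4 and 51.2 CPM with SW-113. The lowest SW-138 library lay well above the highest SW-113 library. The fold was 1.59 (95% interval 1.46 to 1.73), a log2 fold change of 0.67 ± 0.06 (SE, n = 3 each). The gene lies on chromosome 17, 44076746 to 44123702, on the minus strand; coordinates here are those of GENCODE release 29 on GRCh38.

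HDAC9, whose gene also makes a short form without the catalytic domain, showed the next largest difference among the deacetylases. It was at 80.4, 85.5 and 76.1 CPM with SW-138, against 54.4, 62.6 and 56.4 CPM with SW-113. Again all SW-138 libraries were above all SW-113 libraries. The fold was 1.40 (1.26 to 1.55) and the log2 fold change 0.48 ± 0.07 (SE). The counts are per gene, so the full and the short forms cannot be told apart. The gene spans 915.5 kb of chromosome 7, from 18086949 to 19002416 on the plus strand.

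HDAC4 and HDAC7, the other 2 class IIa genes, differed little. HDAC4, a regulator of cartilage and muscle, was at 26.1, 25.2 and 22.8 CPM with SW-138, against 25.2, 23.0 and 23.4 CPM with SW-113. HDAC7, which acts in vessels and thymocytes, was at 72.7, 71.1 and 74.6 CPM with SW-138, against 70.2, 67.3 and 71.7 CPM with SW-113. The libraries of both genes interleaved. Their folds were 1.04 (95% interval 0.928 to 1.16) for HDAC4 and 1.04 (0.968 to 1.13) for HDAC7, and the folds of HDAC5 and HDAC9 lay above both intervals. HDAC4 lies on chromosome 2, 239048168 to 239401654, and HDAC7 on chromosome 12, 47782722 to 47833132, both on the minus strand.

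MEF2C, the member of the family that guides heart and neural crest development, was the least abundant gene of the 7 and had the largest fold. It was at 6.33, 7.01 and 6.06 CPM with SW-138, against 2.55, 3.73 and 3.79 CPM with SW-113. These values rested on 264, 237 and 223 counts with SW-138 and on 98, 185 and 154 counts with SW-113. The SW-138 libraries were all higher, and SW-113 replicate 1 was the lowest library. The fold was 1.92 with a wide interval of 1.51 to 2.43, and the log2 fold change was 0.94 ± 0.15 (SE). Its spread between replicates (pooled SD of 0.21 on the log2 scale) was the largest of the 7, whose others lay from 0.0405 to 0.0946, beside a median of 0.107 for all tested genes and of 0.0692 for those at 20 CPM or more. MEF2C lies on chromosome 5, 88717117 to 88904257, on the minus strand.

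MEF2D, which is expressed in most tissues, differed by a smaller amount. It was at 107, 97.2 and 109 CPM with SW-138, against 90.5, 86.1 and 86.9 CPM with SW-113. The groups were separate, with SW-138 replicate 2 nearest to the SW-113 libraries. The fold was 1.19 and the log2 fold change 0.25 ± 0.06 (SE), with a 95% interval of 0.13 to 0.38. When 1 library was left out, MEF2D passed the adjusted threshold in 1 of 6 fits, that without SW-138 replicate 2, with log2 fold changes from 0.22 to 0.30. The gene lies on chromosome 1, 156463727 to 156500828, on the minus strand.

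MEF2A, also widely expressed, was at 79.4, 74.5 and 69.3 CPM with SW-138, against 68.3, 71.5 and 72.2 CPM with SW-113. SW-138 replicates 1 and 2 lay above all SW-113 libraries and replicate 3 within their range. On the log2 scale it differed by 0.07 ± 0.06 (SE; 95% interval -0.06 to 0.21). The gene lies on chromosome 15, 99565417 to 99716466, on the plus strand. MEF2B, the remaining gene of the family, was not a member. It had at most 0.416 CPM in any library and was not tested. The readthrough gene BORCS8-MEF2B, which is annotated over the same locus, had 156 to 180 expected counts with SW-138 and 168 to 271 with SW-113. The expected counts of MEF2B were not whole, so reads may be divided between the 2 genes and its level is uncertain.

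Without SW-138 replicate 2, the log2 fold changes were 0.67 for HDAC5, 0.44 for HDAC9, 0.88 for MEF2C and 0.30 for MEF2D, and 0.03, 0.08 and 0.07 for HDAC4, HDAC7 and MEF2A. Over the 6 fits that each left out 1 library, HDAC5 ranged from 0.64 to 0.71, HDAC9 from 0.44 to 0.54 and MEF2C from 0.78 to 1.03. In each of these fits the 7 genes kept a positive sign.

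**Figure D2:**
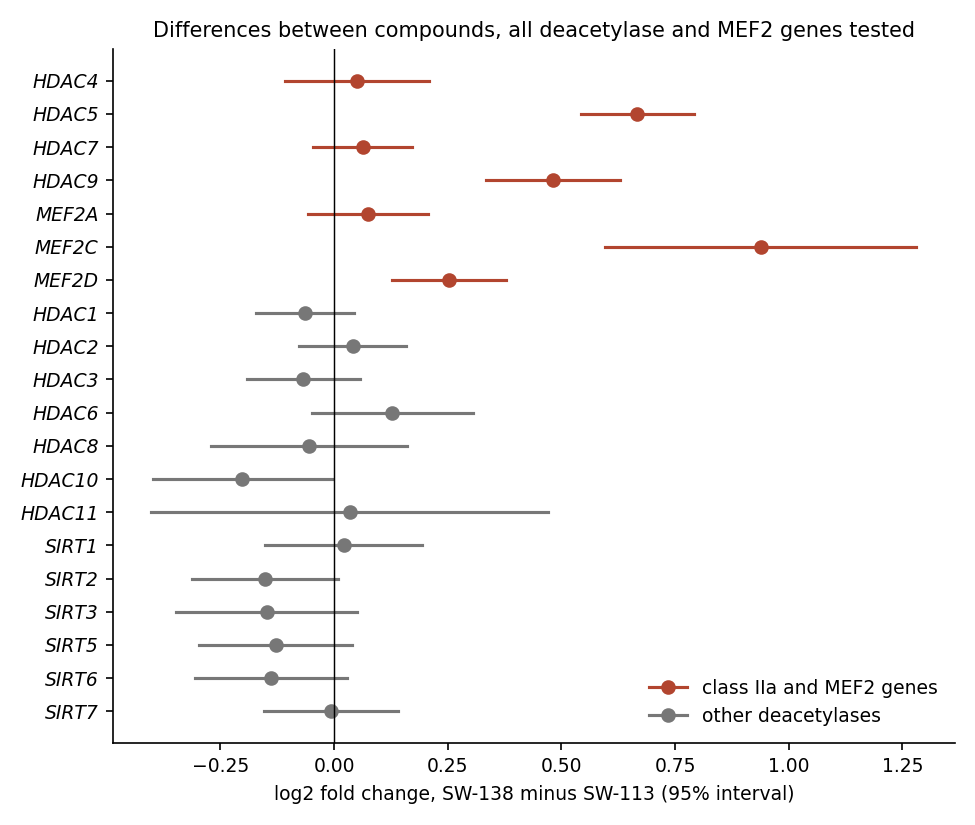
Log2 fold change of SW-138 minus SW-113 (horizontal axis) with 95% interval for the 7 class IIa and MEF2 genes (red) and the 13 other deacetylases tested (grey). The intervals of HDAC5, HDAC9, MEF2C and MEF2D lie above 0 and those of HDAC4, HDAC7 and MEF2A cross it.

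Set beside the other deacetylases, the class IIa genes had a median log2 fold change of 0.27 over 4 genes, the MEF2 genes 0.25 over 3, the other deacetylases -0.06 over 13 (7 HDAC genes and the 6 sirtuin genes SIRT1, SIRT2, SIRT3, SIRT5, SIRT6 and SIRT7) and all tested genes 0.01. No class IIa gene lay near that median, which falls between HDAC7 at 0.06 and HDAC9 at 0.48. The set was named with HDAC5 and HDAC9 known to differ, so nothing is read from its median. Among the other 13, edgeR called 0 genes, and so did DESeq2 and limma-voom (0 each), while 1 gene had an unadjusted p under 0.05. HDAC6, the named target of the inhibitor series, was at 14.5, 15.4 and 14.3 CPM with SW-138, against 12.4, 13.5 and 14.5 CPM with SW-113, with overlapping libraries. Its log2 fold change was 0.13 (95% interval -0.05 to 0.31). HDAC3, the catalytic partner of the class IIa proteins, had -0.07 ± 0.06 (SE). HDAC1, HDAC2, HDAC8, HDAC10 and HDAC11 lay between -0.20 and 0.04 and did not pass, and the sirtuin genes, NAD-dependent deacylases, lay between -0.15 and 0.02.

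Summed over the family, class IIa mRNA came to 262 ± 2.96 CPM in the SW-138 libraries and to 204 ± 4.30 CPM in those of SW-113 (SD, n = 3 each), a ratio of 1.28. Summed MEF2 mRNA came to 185 ± 7.19 CPM in SW-138 libraries and 162 ± 0.924 CPM in those of SW-113, a ratio of 1.15. The sums did not overlap, which also held for 27.9% of single tested genes. HDAC5 (means 84.3 CPM with SW-138 and 53.0 with SW-113) and HDAC9 (80.7 and 57.8) made most of the class IIa difference. HDAC4 (24.7 and 23.8) and HDAC7 (72.8 and 69.7) added little. MEF2D (105 and 87.8) made most of the MEF2 difference. The set was in part chosen on HDAC5 and HDAC9, so the class IIa sum is no separate result. Without SW-138 replicate 2 the log2 ratios were 0.35 and 0.22, beside 0.36 and 0.20 with all libraries.

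Within the class IIa pool, HDAC5 held a larger share in SW-138 libraries. Per kb of the longest annotated transcript, HDAC5 held 41.4% ± 1.14 of the class IIa sum in SW-138 libraries and 33.8% ± 1.21 in SW-113 libraries (SD, n = 3). HDAC7 held 29.7% ± 0.770 in SW-138 libraries and 37.0% ± 1.83 in SW-113 libraries. With these lengths HDAC5 was above HDAC7 in every SW-138 library and HDAC7 above HDAC5 in 2 of 3 SW-113 libraries, but the order depends on the length used. Scaled by the median length of annotated protein-coding transcripts, only 593 bases for HDAC7 and 846 for HDAC5, HDAC7 was above HDAC5 in all 6 libraries. The shares were then 41.0% for HDAC7 and 33.3% for HDAC5 in SW-138 libraries. In SW-113 libraries they were 47.8% for HDAC7 and 25.5% for HDAC5. HDAC9 held 21.7% ± 1.24 with SW-138 and 20.2% ± 1.10 with SW-113, shares that overlapped, and HDAC4 held 7.18% ± 0.540 with SW-138 and 9.02% ± 0.586 with SW-113. In the MEF2 sum, MEF2C held 2.75% ± 0.295 with SW-138 and 1.62% ± 0.336 with SW-113, and MEF2D held 56.3% ± 2.51 with SW-138 and 53.9% ± 1.53 with SW-113.

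**Figure D3:**
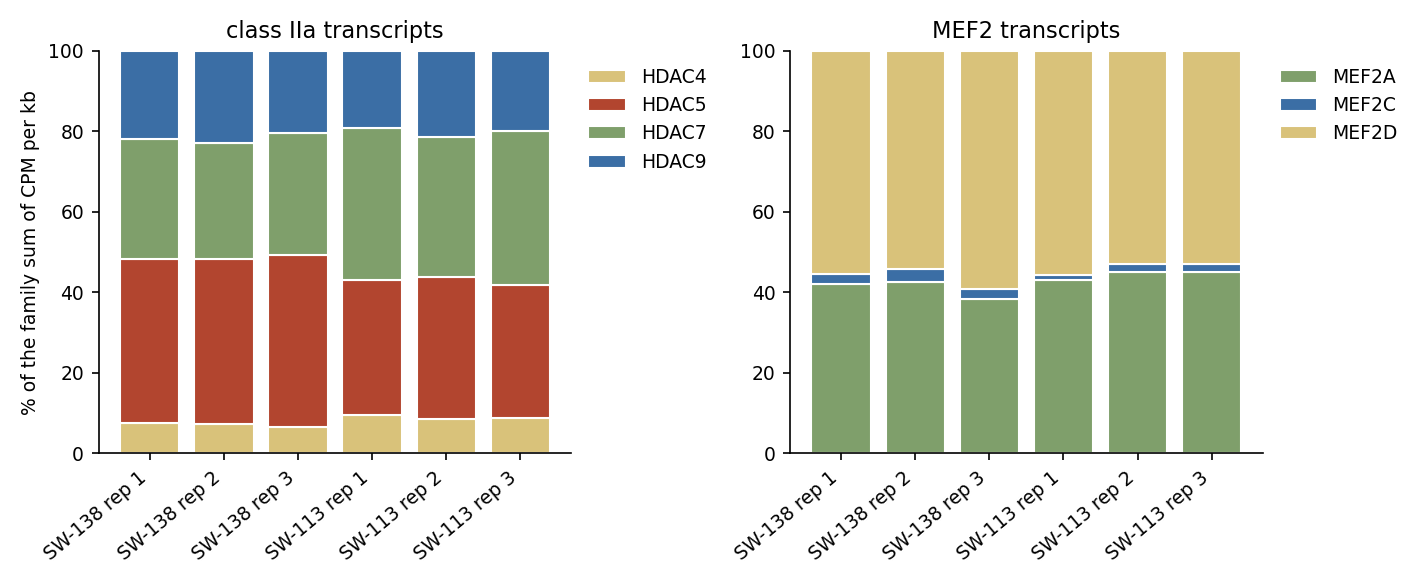
Share of the family sum of CPM per kb (percent, vertical axis) held by each gene in each library, class IIa genes left and MEF2 genes right, SW-138 libraries before SW-113 libraries. HDAC5 takes 40.5% to 42.7% of the class IIa sum in the SW-138 libraries and 32.9% to 35.2% in the SW-113 libraries, and MEF2C is the thinnest band of the MEF2 bars.

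The order of the levels was read per kb of the longest annotated transcript, since CPM alone favours long transcripts. With SW-138 the order was MEF2D (16.3 to 18.3 CPM per kb), HDAC5 (15.3 to 16.4), MEF2A (11.9 to 13.6), HDAC7 (11.1 to 11.6), HDAC9 (7.84 to 8.81), HDAC4 (2.53 to 2.90) and MEF2C (0.801 to 0.927). MEF2D and HDAC5 overlapped, and the other neighbours in that order did not. With SW-113 the order was MEF2D (14.4 to 15.2 CPM per kb), MEF2A (11.7 to 12.4), HDAC7 (10.5 to 11.2), HDAC5 (9.62 to 10.6), HDAC9 (5.60 to 6.45), HDAC4 (2.56 to 2.80) and MEF2C (0.337 to 0.501), where HDAC7 and HDAC5 were the overlapping neighbours. On the same scale HDAC6 was at 2.73 to 2.93 CPM per kb with SW-138 and 2.36 to 2.76 with SW-113, near HDAC4 and below HDAC5, HDAC7 and HDAC9. HDAC1, HDAC2 and HDAC3, of class I, had means of 40.3, 20.2 and 16.5 CPM per kb with SW-138 and 42.1, 19.7 and 17.3 with SW-113, HDAC1 and HDAC2 above the 4 class IIa genes. The order depends on the length used. Scaled by the median length of the annotated protein-coding transcripts of each gene, HDAC7 had the highest level. Those medians were 565 bases for HDAC4, 593 for HDAC7 and 846 for HDAC5, far below their longest transcripts of 8990, 6414 and 5326. For the other genes they ran from 1882 to 3194 bases. This second order therefore rests on the short annotated transcripts of HDAC4, HDAC5 and HDAC7.

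**Figure D4:**
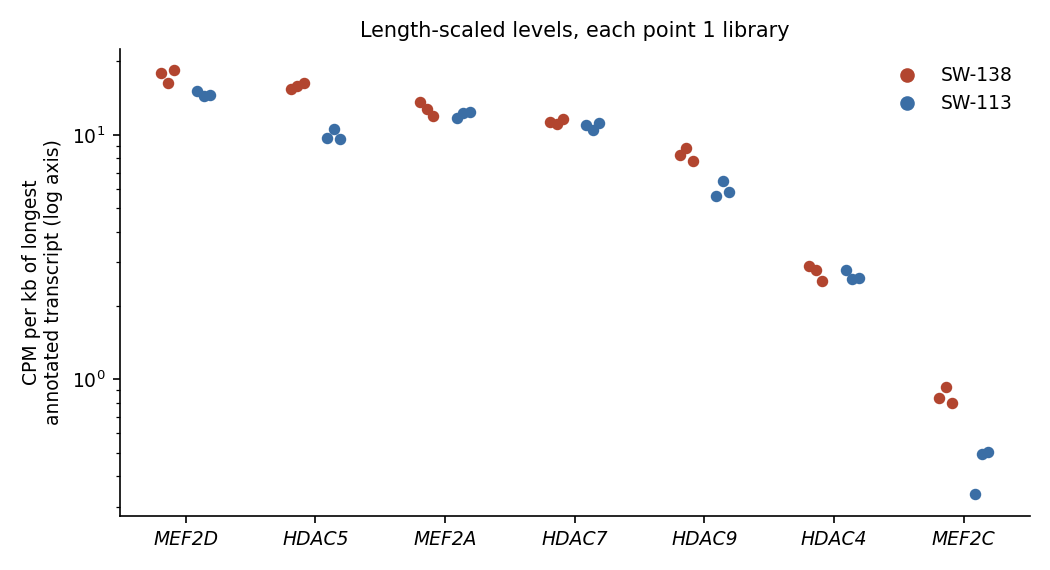
CPM per kb of the longest annotated transcript (log axis) for the 7 genes, sorted by their mean in SW-138, with 1 point per library of SW-138 (red) and SW-113 (blue). MEF2D and HDAC5 lead with SW-138, and MEF2C lies lowest in both compounds.

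Long transcripts as a group lay slightly higher in SW-138, and all 7 genes have long transcripts. Their longest annotated transcripts run from 5326 bases in HDAC5 to 9705 in HDAC9, and all lie in the longest 3 of 10 equal groups of tested protein-coding genes by length. The median log2 fold changes of those groups were 0.03, 0.04 and 0.04, and that of the group with the shortest transcripts was -0.15. After removing the dependence on length and base composition of transcripts, the log2 fold changes were 0.66 for HDAC5, 0.42 for HDAC9, 0.87 for MEF2C and 0.23 for MEF2D, and 0.02, 0.04 and 0.02 for HDAC4, HDAC7 and MEF2A.

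Of 21 genes annotated as overlapping a member, 3 had enough counts to test, SLC48A1 and RP5-1057I20.4 at HDAC7 and LYSMD4 at MEF2A. SLC48A1, which overlaps HDAC7 by 32 bases, was the most abundant, at 15.5 to 17.4 CPM with SW-138 and 15.9 to 16.9 CPM with SW-113. edgeR called 0 of the 3, each with an unadjusted p over 0.05, and none lay at a gene that was higher. The antisense RNAs at HDAC5 and HDAC9 had 0 counts in all libraries, and MEF2C-AS1 had 1 to 4 counts per library. Strand-specific counting is not given in the sources used here, so reads of a gene and of its antisense partner may not be separated.

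The nearest protein-coding genes on each side did not follow the members in a common direction. Of 14 such genes 12 were tested, and 2 were higher and 2 lower, beside 6.82% called among all tested genes. TWIST1, a transcription factor of mesenchymal cells that lies 18574 bases beyond the end of HDAC9, was lower while HDAC9 was higher. It was at 7.58, 7.52 and 7.41 CPM with SW-138, against 9.82, 9.88 and 10.5 CPM with SW-113, and the groups did not overlap. Its log2 fold change was -0.42 ± 0.08 (SE), with an edgeR Benjamini-Hochberg adjusted p of 0.0126 and a loss of the call without SW-113 replicate 3 (-0.44 to -0.39 when each library was left out in turn). Its paralog TWIST2, 137624 bases from HDAC4, was at -0.31 ± 0.07 (adjusted p = 0.0328, edgeR), and of those 6 fits it passed only in the one without SW-138 replicate 2 (-0.36; range -0.36 to -0.26). It also missed the threshold with scaling by total count alone and with length and GC trends removed.
IQGAP3, a scaffold gene of dividing cells 24576 bases from MEF2D, was at 88.1, 77.3 and 89.6 CPM with SW-138, against 62.4, 51.3 and 68.2 CPM with SW-113. Its libraries did not overlap, and its log2 fold change was 0.49 ± 0.10 (adjusted p = 0.0158, edgeR). TMEM161B, 447640 bases from MEF2C, was at 0.30 ± 0.05 (adjusted p = 0.0102, edgeR). The IQGAP3 call was lost without SW-138 replicate 1 or 3 or SW-113 replicate 1 (0.38 to 0.58), and that of TMEM161B without SW-113 replicate 3 (0.28 to 0.34) and with length and GC trends removed. The neighbours of HDAC5, G6PC3 and C17orf53, lay at 0.02 and 0.02 and did not pass.

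Genes that work with these proteins were read from lists, given by their counts beside the background of 6.82% called. The lists were chosen with earlier results of these data known. Nothing is therefore read from their counts, and the calls of listed genes are given as a description. The upstream kinases and phosphatases, which set where class IIa proteins sit in the cell, had 0 of 29 tested genes past the threshold in edgeR and 0 in limma-voom, and 3 with an unadjusted p under 0.05. DESeq2 called 1, PRKAA1, an AMP-activated kinase subunit, at 0.19 ± 0.05 (SE). The median of the list was -0.01, beside 0.01 over all tested genes. PRKD1, a protein kinase D gene, was at 0.01 ± 0.08 and the salt-inducible kinase gene SIK1, whose reads may be shared with a near-identical copy, at -0.12 ± 0.07. The most abundant gene of the list, PPP2R1A, a scaffold of protein phosphatase 2A, averaged 208 CPM in SW-138 libraries and 217 CPM in SW-113 libraries.

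The adaptor genes of the YWHA family, which hold phosphorylated class IIa proteins in the cytoplasm, were listed with XPO1 and importin genes. Of 10 tested, 0 passed in edgeR and 0 in limma-voom, and 2 had an unadjusted p under 0.05. DESeq2 called 1, YWHAQ, at -0.20 ± 0.05 (SE). YWHAZ, the most abundant, was at 0.00 ± 0.05. Of 13 corepressor partners, GPS2, a subunit of the NCOR1 complex, was lower and 12 did not pass. GPS2 was at 39.2, 36.6 and 36.8 CPM with SW-138, against 44.4, 47.1 and 46.4 CPM with SW-113 (log2 fold change -0.29 ± 0.05, adjusted p = 0.0124, edgeR), and the call was lost without SW-113 replicate 2 or 3 (-0.32 to -0.27). The corepressor gene NCOR1 was at 0.11 ± 0.05 and did not pass. TBL1XR1, the most abundant of this list, was at 0.11 ± 0.06.

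Other DNA-binding partners of class IIa deacetylases had 2 of 10 genes higher, 0 lower and 8 not passing, with a median of 0.08. RUNX3, a Runt-domain factor, was at 55.1, 50.7 and 57.8 CPM with SW-138, against 47.4, 44.9 and 45.5 CPM with SW-113 (0.25 ± 0.06, adjusted p = 0.0356, edgeR). BCL6, a repressor best known from germinal centre B cells, was at 31.6, 31.3 and 31.2 CPM with SW-138, against 26.4, 25.6 and 27.8 CPM with SW-113 (0.24 ± 0.06, adjusted p = 0.0324, edgeR). Both groups were separate, but of the fits that left out a library only the one without SW-138 replicate 2 kept either call, at 0.30 and 0.24 (ranges 0.21 to 0.30 and 0.21 to 0.27). HIF1A, the most abundant of this list, was at 0.12 ± 0.05 and did not pass.

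In a list of activators, cofactors and other regulators of MEF2, 3 of 23 tested were higher and 2 lower. The other 18 missed the threshold, with a median of -0.04. Not every listed gene is an activator, so the counts give no direction of MEF2 activity. MAP2K3, which activates the p38 kinases that phosphorylate MEF2 proteins, was at 54.7, 57.3 and 56.9 CPM with SW-138, against 43.0, 43.3 and 46.2 CPM with SW-113. Its log2 fold change was 0.35 ± 0.05 (adjusted p = 0.00557, edgeR), and the call held in each of the 18 alternatives run. NFATC2, a calcineurin-regulated factor, was at 5.04, 4.97 and 5.24 CPM with SW-138, against 3.17, 2.86 and 3.66 CPM with SW-113 (0.66 ± 0.13, adjusted p = 0.0143, edgeR).
The related NFATC3 went the other way, at 34.4, 32.0 and 31.3 CPM with SW-138, against 39.1, 37.4 and 38.4 CPM with SW-113 (-0.23 ± 0.06, adjusted p = 0.0373, edgeR). CDK5, a kinase that phosphorylates MEF2 in neurons, was lower, at 16.2, 17.6 and 17.8 CPM with SW-138, against 20.1, 22.9 and 22.6 CPM with SW-113 (-0.35 ± 0.08, adjusted p = 0.0215, edgeR). TEAD1, which can bind DNA with MEF2, was the most abundant of the list and higher at 0.21 ± 0.05 (adjusted p = 0.0486, edgeR). Leaving out single libraries kept the calls of NFATC2 in 3 of 6 fits (0.57 to 0.75; lost without SW-138 replicate 3 or SW-113 replicate 1 or 2) and of CDK5 in 2 (-0.41 to -0.30; kept without SW-138 replicate 2 or SW-113 replicate 1). NFATC3 kept its call in 1 (-0.27 to -0.20; without SW-138 replicate 1) and TEAD1 in 1 (0.19 to 0.27; without SW-138 replicate 3). NFATC3 also missed the threshold when libraries were scaled by total count alone, and TEAD1 and BCL6 when length and GC trends were removed.

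Genes described as MEF2 targets had 2 of 17 higher, 0 lower and 15 not passing, with a median of -0.02. NR4A1, an early response nuclear receptor gene that class IIa deacetylases repress through MEF2 in T cells, was at 7.82, 7.46 and 8.45 CPM with SW-138, against 4.68, 3.07 and 3.27 CPM with SW-113. Its log2 fold change was 1.12 ± 0.15 (adjusted p = 0.00372, edgeR). BDNF, which encodes a neurotrophin, was at 30.1, 28.9 and 29.2 CPM with SW-138, against 20.5, 18.8 and 20.3 CPM with SW-113 (0.57 ± 0.06, adjusted p = 0.00144, edgeR). Both groups were separate in both genes, and both calls held in each of the 18 alternatives run. BDNF and NR4A1 are also activity-responsive genes that other factors can drive, and the cause of their differences here was not tested. The endothelial MEF2 target KLF2 was at 0.04 ± 0.07, and JUN, the most abundant of the list, at 0.21 ± 0.08 (adjusted p = 0.129, edgeR). The 10 listed genes without enough counts to test were mainly muscle genes: MYOG and CKM were at 0 in all libraries, and DES reached at most 0.0480 CPM.

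**Figure D5:**
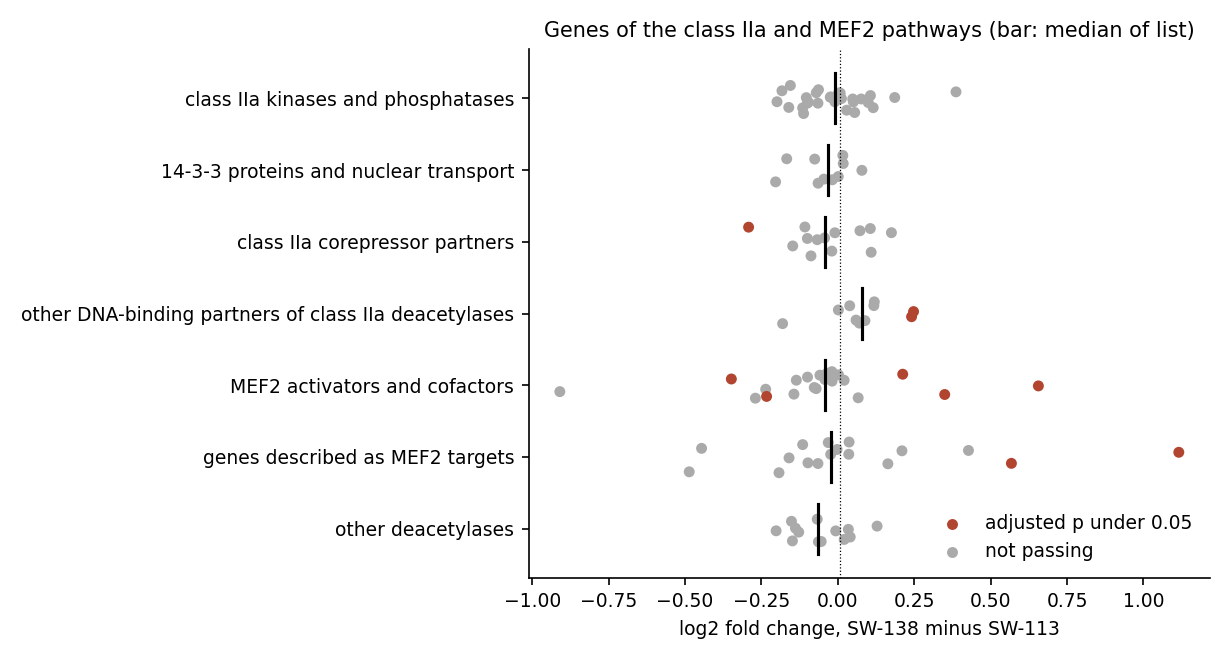
Log2 fold change of SW-138 minus SW-113 (horizontal axis) for the tested genes of 7 lists, 1 point per gene, red where the adjusted p was under 0.05, with a black bar at each list's median and a dotted line at the median of all tested genes. The list medians lie between -0.06 and 0.08, and the red points on the right include NR4A1 at 1.12 and NFATC2 at 0.66.

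The protein-coding genes whose levels followed HDAC5 most closely over the 6 libraries were VAT1L, TXNIP, RCAN1, NEGR1 and SCG5, by the root mean square distance between log2 CPM profiles centred on each gene (0.0576 to 0.0841 on the log2 scale, 10354 genes at a mean of 5 CPM or more). VAT1L, the nearest, was at 23.8, 23.3 and 24.3 CPM with SW-138, against 15.5, 15.4 and 15.4 CPM with SW-113. RCAN1, whose product inhibits calcineurin, was at 68.5, 68.1 and 71.9 CPM with SW-138, against 39.0, 41.3 and 39.1 CPM with SW-113. For HDAC9 the nearest were FNDC3A, NLGN1, PHLDB2, HECW2 and PTPRR (0.0470 to 0.0638). FNDC3A was at 247, 258 and 233 CPM with SW-138, against 163, 176 and 163 CPM with SW-113, and like HDAC9 it was highest in SW-138 replicate 2 and, within SW-113, in replicate 2. HDAC5 and HDAC9 were 0.116 apart, HDAC5 and MEF2C 0.194, and HDAC9 and MEF2D 0.171. The difference between compounds enters these distances, so a small one says mainly that the genes differed by a like amount.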

How the data were processed

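RNA from HT1080 cells was measured in 6 libraries, 3 with SW-138 and 3 with SW-113, with groups taken from the labels. The authors deposited expected counts per gene, which need not be whole (10.6% to 11.6% of values were not). Tools listed in the submitters' processing notes, without role or order, are RSEM 1.3.3, Bowtie2 2.5.4, Trimmomatic 0.39 and DESeq2 1.42.0, with the build GRCh38; annotation, filters and strand setting are not given in the sources used here. RSEM can divide reads between near-identical sequences. Expected counts were rounded and filtered by filterByExpr, which left 16905 genes of 60675. SW-138 was compared with SW-113 in edgeR 4.0.16 (TMM, quasi-likelihood test, no block, Benjamini-Hochberg over all tested genes at 0.05) under R 4.3.3. Standard errors came from limma-voom (limma 3.58.1), and 95% intervals were centred on the edgeR values. Of the rows, 57055 were in GENCODE release 29, used for coordinates, lengths and GC content. Text names the members, the other deacetylases, up to 4 called genes with the smallest p and the most abundant gene of each list, chosen further genes (SIK1, KLF2, NR4A1, BDNF, PRKD1, NCOR1; another gene of this rule is not reported here), neighbours and nearest patterns; PRKAA1 and YWHAQ were added after their values were seen. The members and lists were chosen with earlier results of these data known. Alternatives were other scalings, filters and tools (DESeq2 1.42.0), a replicate block, removal of length and GC trends (mgcv 1.9.3), removal of mitochondrial and stable noncoding genes, leaving out each library, other transcript lengths and pattern minimums and, chosen after seeing the data, protein-coding genes alone. Plots were drawn with matplotlib 3.10.9.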

Additional observations from a re-analysis of the deposited data

How the results depend on the processing

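Of 126 log2 fold changes of the 7 genes under alternatives, 125 moved by less than the spread between replicates and 0 changed sign. The one that moved was HDAC7 with scaling by total count alone (0.126 beside 0.06), a setting that raised the median of all genes by 0.0641 and the class IIa and MEF2 log2 ratios to 0.425 and 0.261; it called 923 genes higher and 377 lower, beside 466 and 687. A filter of 1 count in 1 library gave 2060 calls (991 higher, 1069 lower) and 5 lower in the pathway lists, beside 1153 calls and 3. Over all tested genes, deviations of same-numbered libraries had correlations of 0.0492, 0.206 and 0.0512, with 1 of 3 libraries closest to its own number. The numbers were therefore not taken as pairs, and whether some genes share a replicate effect was not tested. The replicate block gave 2363 calls (1093 higher, 1270 lower) and 7 lower in the lists. It also called 4 of the genes described as MEF2 targets higher, beside 2 without it. Together with removal of length and GC trends it gave 2278 (786 higher, 1492 lower) and 12 lower in the lists. Removal of those trends alone called 2 neighbours, beside 4. The cause of these changes was not tested. Leaving out 1 library gave 303 to 1616 calls (149 to 803 higher, 154 to 813 lower), 3 to 7 higher and 0 to 3 lower in the lists, and 1 to 4 neighbours, with fewer samples in each fit. Of 252 values of the 14 list genes and neighbours called, 205 passed, 47 did not and 0 changed sign. With median transcript lengths, CPM per kb was 42.95 for HDAC4, 81.2 for HDAC5 and 120.2 for HDAC7, whose medians were only 565 to 846 bases. It was 28.4 for HDAC9, 25.4 for MEF2A, 2.61 for MEF2C and 30.1 for MEF2D. At a minimum of 20 CPM, 3 of the 5 genes nearest to HDAC9 remained. NLGN1 and PTPRR lay under that minimum, so their loss says nothing about how close their patterns were. Depth limits MEF2C most, at 98 to 264 counts, and MEF2B was not tested at its estimated counts.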
